A study of Mus musculus with 8 samples.

Results

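The genes described here are 31 genes of the p53 pathway, chosen by symbol with earlier results of these data known: the p53 gene itself, its inhibitors, and genes that p53 is known to switch on. Of these, 29 are among the 14496 genes of the embryonic brain table and 20 are among the 9217 genes of the embryonic stem cell table. Symbols matched 27 of the brain genes, and gene identifiers matched 2 listed under older names (Pidd1 as Lrdd and Tigar as 9630033F20Rik). All 31 are in at least 1 table and 18 are in both. Mdm4 and Polk were not analysed here in brain, and 11 of the genes, Trp53 and Cdkn1a among them, were not analysed here in stem cells.

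The brain libraries form 2 groups of 3. NTD stands for neural tube defect. Dams of the NTD embryos ate a low folate diet and were injected intraperitoneally with MTX (methotrexate, a folate antagonist) at 1.5 mg/kg on gestational day 7.5. Embryos were examined between day 9.5 and 10.5, and NTD embryos were small and delayed, mainly with malformed hindbrain or spina bifida. Control embryos are labelled with normal saline and had closed neural tubes. What the control dams ate is not stated, so effects of diet and of drug cannot be told apart. Nor is it stated whether the replicates of a group come from different litters, and p-values cover no more than the spread among these libraries. The mouse embryonic stem cells (mESC) were of the Sv129 background and grew in folate-free medium (FA0) or in the same medium with 4 mg/L folate (FA4), with 1 library each.

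p53 is a transcription factor that is kept scarce by the ubiquitin ligase Mdm2 and its partner Mdm4, and that accumulates after DNA damage, nucleotide shortage or ribosome stress. It binds DNA as a tetramer at paired copies of a short decamer, and its targets arrest the cell cycle, start apoptosis, repair DNA and slow growth. Because much of its control is on the protein, target genes are commonly read as a sign of its activity. In neural tube closure p53 is known in mice from models in which extra p53 activity harms the closing tube, and from p53 null embryos of which some fail to close the cranial tube.

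Promoter windows from 250 bases before to 50 bases after a transcription start were available from RefSeq (build GRCm38.p6) for 23 of the 31 genes, as 31 windows. They were searched on both strands for the canonical p53 decamer, whose consensus is its own reverse complement. At least 1 decamer was found in 11 of the 31 windows (35.5%), and in 2745 of 32851 RefSeq windows of the same length (8.36%). Counted by gene, 10 of 23 held one (43.5%), against 2582 of 27025 genes (9.55%). A pair of decamers with at most 13 bases between them was found in 1 window, that of Cdkn1a, and in 24 of all windows (0.0731%). A match is a run of letters and not evidence of binding, and these windows leave out introns and distal sites where known p53 sites also lie.

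The stretches around the decamers of 4 genes are printed, with the decamers in capitals. Cdkn1a is shown because its window held the pair. Mdm2, Ccng1 and Bax are shown because the ratio of their counts in FA0 to FA4 stem cells, scaled for depth, lay below 1 beyond counting error. Pmaip1 and Trp53inp1 also had such a ratio, as did Plk2 and Bbc3 at a mean under 5 FPKM, but no decamer was found for them. Genes without a RefSeq window could not be searched. Decamers were also found for Aen, Sesn1 and Polk, whose ratio did not differ from 1 beyond counting error. They were found as well for Ddit4l, Ei24 and Trp53, not analysed here in stem cells. A link between decamers and stem cell levels was not tested. Each printed stretch reads 5′ to 3′ on the strand of its gene, upstream of the RefSeq start and outside annotated exons. They lie at chr17:29090871-29090972 (plus strand), chr10:117710900-117710979 (minus), chr11:40755427-40755506 (minus) and chr7:45467055-45467134 (minus), in that order.
Cdkn1a: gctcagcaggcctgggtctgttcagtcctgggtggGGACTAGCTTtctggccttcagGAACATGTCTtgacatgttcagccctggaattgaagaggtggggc
Mdm2: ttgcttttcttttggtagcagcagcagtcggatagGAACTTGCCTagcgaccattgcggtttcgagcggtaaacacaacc
Ccng1: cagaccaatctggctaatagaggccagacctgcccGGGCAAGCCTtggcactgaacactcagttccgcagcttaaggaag
Bax: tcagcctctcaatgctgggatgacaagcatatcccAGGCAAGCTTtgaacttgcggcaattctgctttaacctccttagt

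Brain libraries held 17335564 to 26788304 counts. Across genes, log2 CPM correlated at 0.91 between control libraries 2 and 3, at 0.76 and 0.775 between control library 1 and these, at 0.718 to 0.749 among NTD libraries, and at 0.595 to 0.704 between groups. Of the marker lists for cell types, some differed between the groups and others overlapped. The summed level of 8 trophoblast genes was 0 to 1.93 CPM in controls and 1148 to 1753 CPM in NTD libraries, 3 of them being at 0 in every control. Of the 8, 7 were called higher. Yolk sac endoderm genes summed to 213 to 593 CPM in controls and to 12687 to 14977 CPM in NTD libraries, with 5 of 11 called higher. Neuron genes summed to 4256 to 6041 CPM in controls and to 826 to 968 CPM in NTD libraries, and all 10 were called lower. Neural progenitor genes stood at 909 to 1099 CPM and at 276 to 362 CPM, with 4 of 8 called lower. Endothelium genes were at 209 to 219 and 361 to 399 CPM, with 1 of 5 called higher. Macrophage genes were at 26.6 to 34.5 and 2.27 to 18.3 CPM, with 0 of the 3 tested called. Erythroid genes (11039 to 20055 and 13866 to 15103 CPM) and mesenchyme genes (708 to 1080 and 886 to 1533 CPM) overlapped between the groups, with 0 called. The labelled tissue is brain, and neuron and progenitor markers were present in all 6 libraries, beside the extraembryonic markers in the NTD group. In bulk RNA, fewer cells of a type and less RNA per cell cannot be told apart, and the part of these shifts in the values that follow was not tested.

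**Figure D1:**
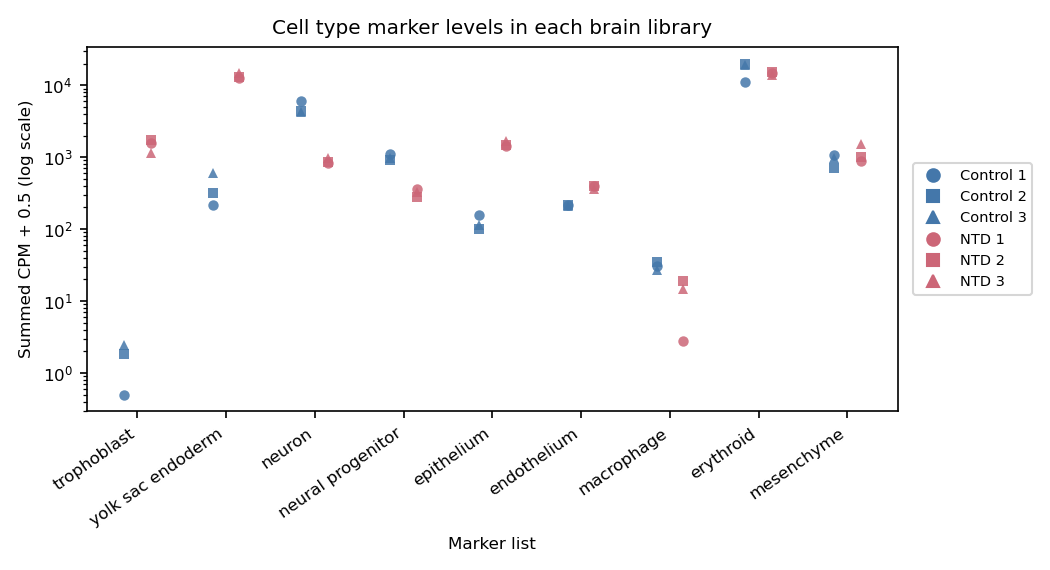
Summed CPM (plus 0.5, log scale) of each cell type marker list in each brain library, blue for control and red for NTD, with 1 symbol per replicate number. Trophoblast and yolk sac lists are higher in all 3 NTD libraries, and neuron and progenitor lists are lower in all 3.

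In NTD against control brain no p53 gene was called in either direction. Of the 29 genes, 26 had enough counts for the test (edgeR's quasi-likelihood test on all 11626 genes kept, Benjamini-Hochberg adjusted p under 0.05), and 0 were higher and 0 lower. Over all genes tested, 2.89% were called (1.89% higher and 0.998% lower), so that a count of 0 among 26 lies near the background. None of the 26 had an unadjusted p under 0.05, where 15% of all genes had. DESeq2 and limma-voom also called 0 of them, with 1 gene each at an unadjusted p under 0.05. The log2 fold change was positive for 14 genes and negative for 12, with a median of 0.22 beside -0.02 for all genes tested. All 3 NTD libraries lay above all controls for 1 gene, Sesn2 (12.4% of all genes), and below them for 1 gene, Btg2 (12.1% of all genes).

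The missing calls do not show that these genes were equal between the groups. The 95% interval of the log2 fold change lay within 1 of 0 for 1 of 26 genes, Mdm2, and for 1431 of the 11626. The spread between replicates was wide, with a median biological coefficient of variation of 0.717 for the p53 genes and 0.656 for all genes.

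**Figure D2:**
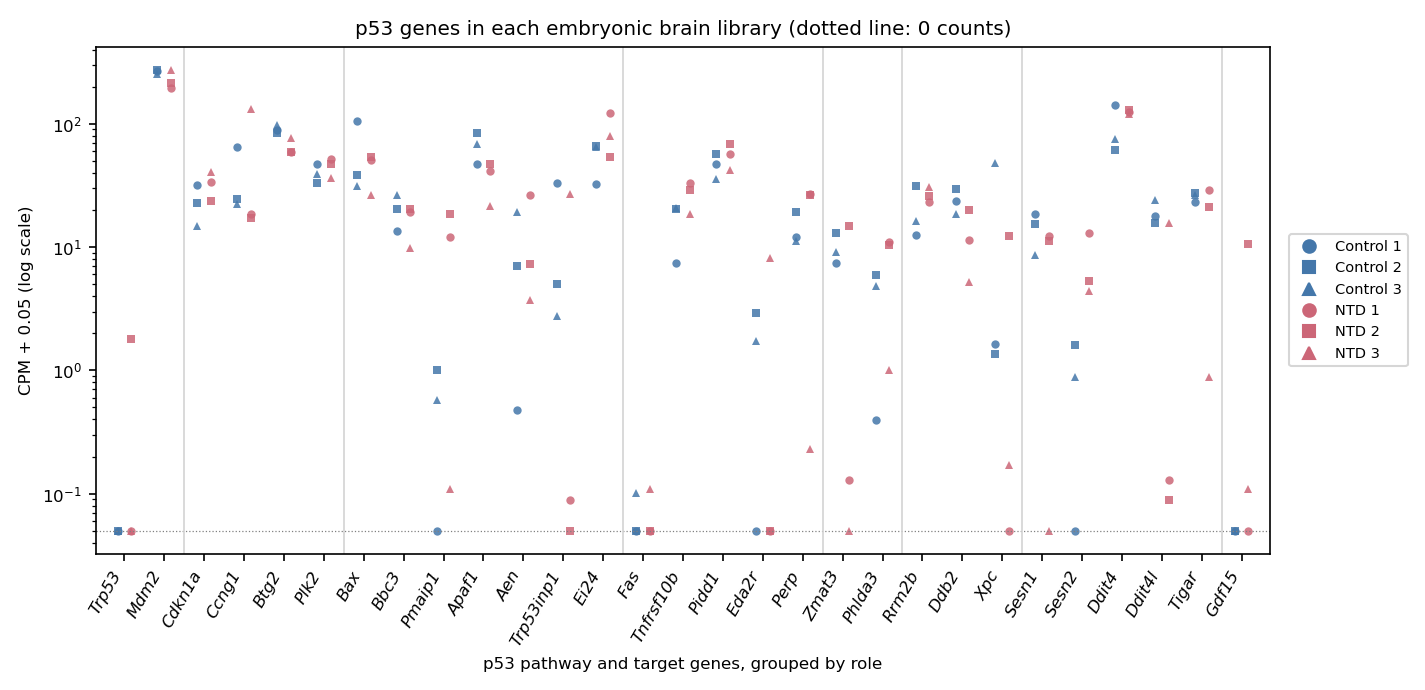
CPM (plus 0.05, log scale) of the 29 p53 genes in each brain library, in order of role, blue for control and red for NTD, with 1 symbol per replicate number and a dotted line at 0 counts. Most genes overlap between the groups, and for 9 of them an NTD library lies near the dotted line while another NTD library is well above it.

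Of the core of the pathway, the p53 mRNA itself was nearly absent from the brain counts. Trp53 (chr11:69580359-69591873, plus strand, GRCm38) held 0 counts in all 3 controls and 0, 45 and 0 counts in NTD libraries 1 to 3. A count of 0 allows up to 0.129, 0.11 and 0.157 CPM in controls 1 to 3 (3 counts per library, counting error only). NTD library 2 alone had reads, at 1.75 CPM, and the gene did not enter the test.

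Mdm2, the ligase that marks p53 for degradation and is itself a p53 target, had the narrowest interval of the genes tested. It lies at chr10:117688875-117710758 on the minus strand and stood at 267, 272 and 252 CPM in control libraries 1 to 3 and at 194, 213 and 273 CPM in NTD libraries 1 to 3. NTD libraries 1 and 2 were below every control and NTD library 3 was just above every control, so the groups overlapped. The means were 264 ± 10.3 and 226 ± 41.0 CPM (SD, n = 3 each), a log2 fold change of -0.22 (SE 0.22, 95% interval -0.71 to 0.27, edgeR adjusted p = 0.763).

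The cell cycle genes of the set were Cdkn1a, Ccng1, Btg2 and Plk2. Cdkn1a (p21), the inhibitor of cyclin-dependent kinases and the best known p53 target, lies at chr17:29090976-29100727 on the plus strand. It stood at 31.9, 22.6 and 14.9 CPM in controls and at 33.9, 23.7 and 40.6 CPM in NTD libraries. The highest value was in NTD library 3, the lowest in control library 3, and NTD library 2 lay among the controls. The means were 23.1 ± 8.51 and 32.7 ± 8.51 CPM (SD, n = 3 each), with a log2 fold change of 0.50 (SE 0.54, interval -0.72 to 1.72, edgeR adjusted p = 0.794).

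Btg2, an antiproliferative gene that also marks neural progenitors about to form neurons, was at 89.5, 83.5 and 97.8 CPM in controls and at 58.6, 58.8 and 76.6 CPM in NTD libraries. Every NTD library lay below every control, and the groups did not overlap. The means were 90.3 ± 7.19 and 64.7 ± 10.3 CPM (SD, n = 3 each). The log2 fold change of -0.48 (SE 0.30, interval -1.14 to 0.18) had an edgeR adjusted p of 0.540 and an unadjusted p of 0.135. The neuron and progenitor marker lists were lower in the same libraries, as given above.

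Ccng1 (cyclin G1), which recruits a phosphatase to Mdm2, was at 65.1, 24.3 and 22.3 CPM in controls and at 18.5, 17.3 and 131 CPM in NTD libraries. NTD library 3 and control library 1 stood high and the other 4 libraries lay between 17.3 and 24.3 CPM. Its log2 fold change was 0.58 with all libraries and -0.39 without those 2. Plk2, a stress-induced polo-like kinase, ranged from 33.3 to 47.2 CPM in controls and from 36.0 to 52.1 CPM in NTD libraries.

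Among the genes of mitochondrial apoptosis, Apaf1 had the smallest p of the set. It encodes the scaffold of the apoptosome, on which caspase 9 is activated, and mice without it have neural tube and forebrain defects. At chr10:90989311-91082770 (minus strand) it stood at 47.2, 84.3 and 68.4 CPM in controls and at 41.6, 47.2 and 21.4 CPM in NTD libraries. NTD library 2 and control library 1 were nearly equal, and the other 2 NTD libraries lay below all controls. The means were 66.6 ± 18.6 and 36.7 ± 13.6 CPM (SD, n = 3 each), a log2 fold change of -0.86 (SE 0.43, interval -1.83 to 0.12, unadjusted p = 0.0774, edgeR adjusted p = 0.415).

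Pmaip1 (Noxa), a BH3-only protein that opposes Mcl1, had the largest difference. It held 0, 26 and 10 counts in controls and 306, 474 and 1 counts in NTD libraries, which is 0, 0.95 and 0.52 CPM against 11.95, 18.4 and 0.06 CPM. NTD libraries 1 and 2 were above every control, while NTD library 3 was among the lowest. The log2 fold change of 4.35 had an SE of 2.41, an interval of -1.06 to 9.76 and an edgeR adjusted p of 0.474. With 1 library left out it ran from 3.52 (without NTD library 2) to 5.26 (without control library 2).

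Ei24, an endoplasmic reticulum protein induced by p53, stood at 32.5, 65.4 and 65.1 CPM in controls and at 121, 53.2 and 79.7 CPM in NTD libraries. NTD library 1 was highest, NTD library 2 lay within the controls, and the log2 fold change was 0.64 (SE 0.42, interval -0.31 to 1.59, edgeR adjusted p = 0.579). Bax, the pore-forming effector, was at 105, 38.5 and 30.9 CPM in controls and at 51.1, 53.6 and 26.2 CPM in NTD libraries. Control library 1 was high, and the log2 fold change of -0.42 became 0.59 without that library and NTD library 3. Bbc3 (Puma), a BH3-only activator of apoptosis, ranged from 13.5 to 26.4 CPM in controls and from 9.74 to 20.2 CPM in NTD libraries.

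Aen, an exonuclease that helps to digest DNA in apoptosis, ranged from 0.43 to 19.4 CPM in controls and from 3.67 to 26.6 CPM in NTD libraries. Trp53inp1, which promotes p53 phosphorylation and autophagy, held 760, 136 and 52 counts in controls and 1, 0 and 449 counts in NTD libraries. As with Ccng1, control library 1 and NTD library 3 were each the highest of their group.

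The receptor and membrane genes overlapped between the groups wherever they were measurable. Tnfrsf10b, the mouse TRAIL death receptor, was at 7.42, 20.2 and 20.6 CPM in controls and at 33.1, 29.1 and 18.6 CPM in NTD libraries. NTD libraries 1 and 2 were above every control, NTD library 3 was not, and the log2 fold change was 0.75 (SE 0.66, interval -0.73 to 2.22, edgeR adjusted p = 0.723). Pidd1, the scaffold that activates caspase 2, ranged from 35.3 to 56.8 CPM in controls and from 42.0 to 68.9 CPM in NTD libraries.

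Perp, a membrane protein of desmosomes that p53 induces in apoptosis, held 278, 523 and 213 counts in controls and 687, 676 and 3 counts in NTD libraries. NTD libraries 1 and 2 were highest and NTD library 3 was near 0. Perp is also an epithelial gene. The epithelium marker list summed to 99.9 to 159 CPM in controls and 1437 to 1659 CPM in NTD libraries, library 3 included. Of its 8 genes, 5 were called higher and 1 lower. Trp63, a gene of that list, held 204, 38 and 74 counts in controls and 0, 1 and 113 counts in NTD libraries. The part of epithelium in the Perp values was not tested. Eda2r, the receptor for ectodysplasin A2, held 0, 79 and 32 counts in controls and 0, 0 and 136 counts in NTD libraries. Fas, the classical death receptor, held at most 1 count in any library and was not tested.

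Zmat3 and Phlda3 act on RNA and on survival signalling. Zmat3, an RNA-binding zinc finger protein, held 171, 352 and 174 counts in controls and 2, 382 and 0 counts in NTD libraries. Only NTD library 2 reached the control level. Phlda3, a repressor of Akt, was at 0.35, 5.92 and 4.75 CPM in controls and at 10.9, 10.4 and 0.96 CPM in NTD libraries.

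The repair and nucleotide genes measured in brain were Rrm2b, Ddb2 and Xpc. Ddb2, which recognises ultraviolet lesions for nucleotide excision repair, was at 23.4, 29.4 and 18.5 CPM in controls and at 11.3, 19.97 and 5.11 CPM in NTD libraries. NTD library 2 lay within the controls and the other 2 NTD libraries below them. The means were 23.8 ± 5.45 and 12.1 ± 7.47 CPM (SD, n = 3 each), a log2 fold change of -0.97 (SE 0.76, interval -2.68 to 0.73, edgeR adjusted p = 0.676). Ddb2 shares 23.8% of its exon bases with Acp2 on the opposite strand. The strand setting of the counting is not given in the sources used here, so its counts are uncertain. Smaller shares with a gene on the opposite strand were found for Rrm2b (8.04%), Cdkn1a (7.68%), Ei24 (6.66%) and Tigar (3.34%). Bax shares 12.2% with Gm45808 on its own strand. The counts of these genes carry a like uncertainty, and the remaining 25 p53 genes share no exon base.

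Xpc, the damage sensor of global genome repair, held 37, 36 and 918 counts in controls and 0, 315 and 2 counts in NTD libraries. One library of each group carried most of its counts. Rrm2b, the p53-induced subunit of ribonucleotide reductase that supplies deoxynucleotides to resting cells, ranged from 12.4 to 31.2 CPM in controls and from 22.9 to 30.7 CPM in NTD libraries. Its log2 fold change was 0.41 (edgeR adjusted p = 0.870).

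The genes of metabolism and of mTORC1 held the 1 gene of the set that was higher in every NTD library. Sesn2, a sestrin that senses leucine and restrains mTORC1, lies at chr4:132492032-132510501 on the minus strand. It held 0, 43 and 16 counts in controls and 334, 135 and 73 counts in NTD libraries, or 0, 1.57 and 0.84 CPM against 13.05, 5.24 and 4.39 CPM. The groups did not overlap. The log2 fold change of 3.23 had an SE of 2.14, an interval of -1.58 to 8.03 and an edgeR adjusted p of 0.584. With 1 library left out it ran from 2.51 (without NTD library 1) to 4.16 (without control library 2). Sesn1, its paralog, ranged from 8.56 to 18.5 CPM in controls and from 0 to 12.3 CPM in NTD libraries.

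Ddit4 (Redd1), an inhibitor of mTORC1 that also responds to low oxygen and glucocorticoids, was at 143, 61.6 and 75.0 CPM in controls and at 124, 129 and 120 CPM in NTD libraries. Control library 1 was above all NTD libraries and the other 2 controls were below them. The means were 93.2 ± 43.7 and 124 ± 4.65 CPM (SD, n = 3 each), a log2 fold change of 0.42 (SE 0.35, interval -0.37 to 1.20, edgeR adjusted p = 0.702).

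Ddit4l (Redd2), its paralog, held 413, 424 and 463 counts in controls and 2, 1 and 260 counts in NTD libraries. NTD libraries 1 and 2 were near 0, and NTD library 3, at 15.6 CPM, was just above control library 2 at 15.5 CPM. With all libraries the log2 fold change was -1.87 (edgeR adjusted p = 0.753). Without NTD library 3 it was -8.33 (edgeR adjusted p = 0.0465), and without control library 1 as well it was -8.29 (edgeR adjusted p = 0.0202). These fitted values rest on NTD libraries with 1 and 2 counts. Both fits leave out the NTD library that held most NTD counts of the gene. Their adjusted p-values are therefore no support for a difference between the groups. Ddit4l was the only p53 gene called when any 1 library, or these 2 together, were left out.

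Tigar, a fructose-2,6-bisphosphatase that diverts glucose to the pentose phosphate pathway, was at 23.0, 27.2 and 26.3 CPM in controls and at 29.0, 21.1 and 0.84 CPM in NTD libraries. NTD library 3 was low and the other 2 were near the controls. Gdf15, a secreted stress cytokine, held 0 counts in every control and 0, 271 and 1 counts in NTD libraries, so that its reads came from NTD library 2 (10.5 CPM). It was not tested. NTD library 2 was also the library with the 45 counts of Trp53. A link between Trp53 and Gdf15 was not tested.

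**Figure D3:**
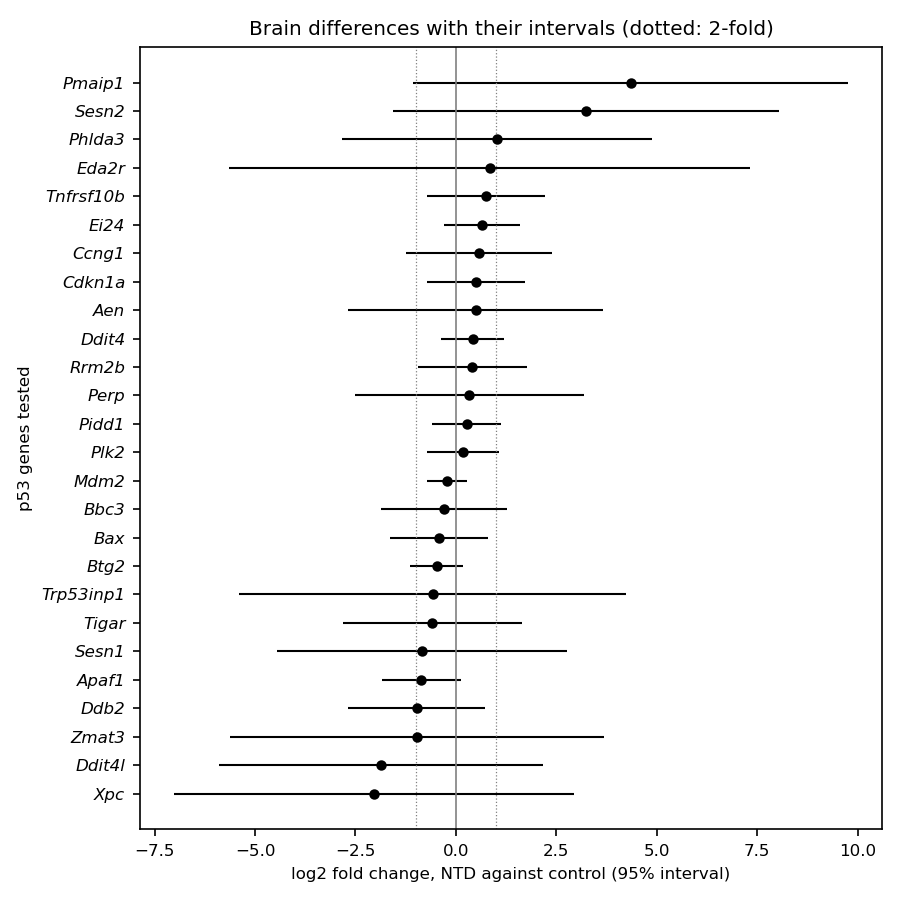
Log2 fold change of NTD against control brain for the 26 p53 genes tested, with 95% intervals from edgeR's quasi-likelihood test and dotted lines at a 2-fold difference. Every interval spans 0, and that of Mdm2 alone lies between the dotted lines.

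Per kilobase of exon, which allows genes to be compared, Ddit4 and Mdm2 had the highest levels in brain, at 53.1 and 51.9 CPM per kb in controls and at 70.9 and 44.6 CPM per kb in NTD libraries. Bax (36.9 and 27.7) and Btg2 (32.9 and 23.6) followed. Cdkn1a was at 6.51 and 9.21 CPM per kb, and Pmaip1 (0.18) and Sesn2 (0.23) were near the bottom in controls, with 3.71 and 2.17 CPM per kb in NTD libraries.

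NTD libraries near 0 beside others with many counts were found for several genes of the set. For 9 of the 29 genes (31%), at least 1 NTD library had at most 3 counts while another had at least 100. They were Pmaip1, Trp53inp1, Eda2r, Perp, Zmat3, Xpc, Sesn1, Ddit4l and Gdf15. In 6 of the 9, all but Pmaip1, Perp and Sesn1, 2 of the 3 NTD libraries were that low. Among all 14496 genes the NTD group showed the pattern for 16.4%, with 2 low libraries in 926 of 2381. In the control group it was seen for 0 of the 29 and for 9.52% of all genes. Of genes with at least 100 counts in some NTD library, it was 9 of 27 p53 genes (33.3%) and 20.7% of all. NTD library 1 was low for 6 of the 9 genes, NTD library 2 for 3 and NTD library 3 for 6. The limits of 3 and 100 counts were chosen after these counts had been seen, and the difference from all genes was not tested.

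Other genes of the pathway, 64 regulators, further targets and apoptosis genes outside the set, gave 2 calls. Of these, 58 are in the brain table and 53 were tested: 2 were higher, 0 were lower, and 10 had an unadjusted p under 0.05. That share of calls is close to the background of 2.89%. None of 16 regulators and none of 12 apoptosis machinery genes was called, and both calls were among 25 further targets.

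Igfbp3, which binds insulin-like growth factors in the circulation, rose from 58.0, 92.1 and 108 CPM in controls to 258, 226 and 294 CPM in NTD libraries. The groups did not overlap, and the log2 fold change was 1.59 (SE 0.29, edgeR adjusted p = 0.0198). The adjusted p was 0.0729 without control library 2, and 0.128, 0.0808 and 0.119 without NTD libraries 1, 2 and 3. Rps27l, a ribosomal protein paralog that p53 induces, rose from 606, 734 and 618 CPM to 1314, 1501 and 1064 CPM (log2 fold change 0.99, SE 0.20, edgeR adjusted p = 0.0303). Leaving out any 1 library raised its adjusted p to between 0.055 and 0.16. Rps27l and Rps27 encode near-identical proteins. Whether their reads were told apart was not tested, so the Rps27l value is uncertain. Igfbp3 and Rps27l both moved with the trophoblast, yolk sac and epithelium lists, and the part of those tissues in the calls was not tested.

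The next smallest p-values belonged to Rprm and Cd82. Rprm (Reprimo), which arrests cells before mitosis, was at 73.7, 110.2 and 97.7 CPM in controls and at 44.5, 45.7 and 43.7 CPM in NTD libraries. The groups did not overlap, and the log2 fold change of -1.07 (SE 0.32) had an adjusted p of 0.124 with edgeR and of 0.0411 with DESeq2. Cd82, a tetraspanin that p53 induces, was at 2.07, 3.40 and 2.24 CPM in controls and at 28.8, 31.1 and 10.2 CPM in NTD libraries. Its log2 fold change of 3.18 (SE 0.99) had an adjusted p of 0.146 with edgeR and of 0.00307 with DESeq2.

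In stem cells, levels of p53 genes without folic acid were mostly at or below those with it. The deposited table gives FPKM values and estimated counts from 1 library per group, so there was no test across conditions. A gene appears there once per peak of another, unnamed assay, and the genes listed held 5247130 estimated counts in FA0 and 3901966 in FA4. The relative depth of FA0 to FA4 was 1.33, from the genes with at least 20 counts in both. The pluripotency gene Pou5f1 was at 456 FPKM in FA4 and 405 FPKM in FA0, and Nanog at 156 and 208 FPKM. Of the 20 p53 genes listed, 16 had a mean of at least 5 FPKM.

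Of these 16, 12 were lower and 4 higher in FA0 by any amount of FPKM (75% lower, beside 50.1% of the 6771 genes at that level). The 12 include Mdm4, whose estimated counts went the other way. The median difference was -0.21 on the log2(FPKM + 1) scale, and that of all 6771 genes was -0.0011. Past 1.5-fold, 2 were lower and 0 higher, where 3.25% of all genes were lower and 3.26% higher by as much. The exact 95% binomial interval of the depth-scaled count ratio, which covers counting error only, lay below 1 for 5 of the 16 and above 1 for 2. Over all 6771 genes it lay below 1 for 17.6% and above 1 for 19.7%.

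Pmaip1 was the gene with the largest difference, at 7.50 FPKM in FA4 and 3.61 FPKM in FA0, or -0.88 on the log2(FPKM + 1) scale. Its count ratio was 0.524 (interval 0.382 to 0.715). Ccng1 followed at 19.99 and 12.8 FPKM, or -0.61, with a count ratio of 0.64 (0.551 to 0.744). These were the 2 genes past 1.5-fold.

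Mdm2 was at 33.9 FPKM in FA4 and 25.9 FPKM in FA0 (log2 difference -0.37), with a count ratio of 0.693 (0.612 to 0.785). Bax was at 74.6 and 60.2 FPKM (-0.30), with a count ratio of 0.796 (0.689 to 0.919). Trp53inp1 was at 25.2 and 20.7 FPKM (-0.28), with a count ratio of 0.808 (0.729 to 0.896). Among the 16 genes at a mean of at least 5 FPKM, these 3 and the 2 genes above were those whose interval lay below 1. They are the main inhibitor of p53, a cyclin, and 3 genes of apoptosis.

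Xpc went the other way, at 9.08 FPKM in FA4 and 13.5 FPKM in FA0 (log2 difference 0.52), with a count ratio of 1.47 (1.23 to 1.77). Mdm4, the second inhibitor of p53, gave opposite directions by unit. Its FPKM was 23.6 in FA4 and 20.8 in FA0 (log2 difference -0.18), while its estimated counts gave a ratio of 1.37 (1.23 to 1.54). Such a disagreement was found for 11.7% of the 6771 genes, and for 2.28% of the 1493 among them that are under an FDR of 0.05 in the authors' deposited table. No direction is drawn for Mdm4.

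Polk, a translesion polymerase, was at 7.74 and 5.38 FPKM (log2 difference -0.45), with a count ratio of 0.784 whose interval of 0.578 to 1.06 includes 1. Aen was at 30.4 and 25.4 FPKM with a count ratio of 0.89. The interval also included 1 for Aen and for Sesn2 (42.5 in FA4 and 42.9 in FA0), Ddit4 (49.9 and 50.8), Zmat3 (12.2 and 12.1), Pidd1 (5.90 and 6), Sesn1 (6.53 and 6.10) and Tigar (20.97 and 19.2). Tnfrsf10b, whose interval included 1 as well, was at 5.51 and 4.51 FPKM.

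Below the level of 5 FPKM, Plk2 was at 4.62 and 2.68 FPKM and Phlda3 at 3.93 and 3.81 FPKM. Gdf15 was at 3.42 and 3.66 FPKM. Bbc3 was at 1.74 FPKM in FA4 and is listed at 0 in FA0, from 17 and 0 estimated counts.

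**Figure D4:**
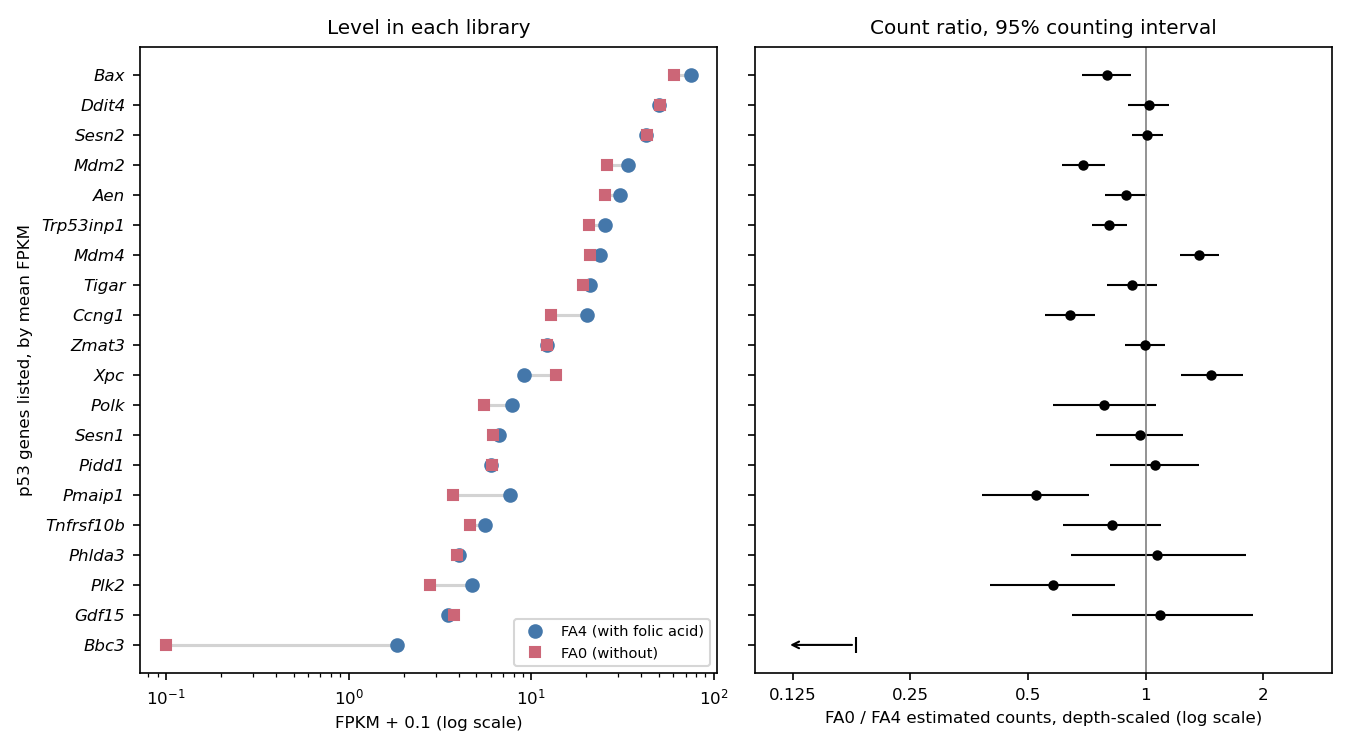
The 20 p53 genes listed for stem cells, ordered by mean FPKM. The left panel shows FPKM (plus 0.1, log scale) in the FA4 and FA0 libraries; the right panel shows the depth-scaled FA0 to FA4 ratio of estimated counts with its exact 95% binomial interval, an arrow marking the upper end where FA0 is at 0. Intervals lie wholly below 1 for Pmaip1, Ccng1, Mdm2, Bax and Trp53inp1, and for Plk2 and Bbc3 under 5 FPKM, and wholly above 1 for Xpc and Mdm4.

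The authors' deposited table gives an FDR for the same 2 libraries, and 9 of the 20 p53 genes are under 0.05 there, beside 19.2% of all genes listed. The authors' deposited log2 value is below 0 for 8 of the 9 and above 0 for Xpc. The 8 include Mdm4, for which no direction is drawn because its estimated counts went the other way. The authors' deposited FDR was 2.81e-07 for Ccng1, 5.82e-07 for Mdm2, 2.18e-06 for Mdm4, 9.12e-05 for Bbc3 and 0.000417 for Xpc. In the authors' deposited table it was 0.000637 for Pmaip1, 0.00133 for Trp53inp1, 0.0206 for Bax and 0.0291 for Plk2. These values compare 1 library with another and leave out the spread between cultures.

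Other pathway genes in stem cells were split more evenly. Of 48 listed, 41 had a mean of at least 5 FPKM, of which 24 were lower and 17 higher in FA0, with a median log2 difference of -0.04. The interval of the count ratio lay below 1 for 7 of the 41 and above 1 for 10. Past 1.5-fold, Igfbp3 was lower (13.4 FPKM in FA4 and 8.01 FPKM in FA0), and 2 genes were higher. Chek2, the checkpoint kinase that phosphorylates p53, was at 5.70 and 12.9 FPKM, with a count ratio of 2.11 (1.61 to 2.82). Ppp1r13l, an inhibitor of p53, was at 4.57 and 7.82 FPKM (log2 difference 0.66), while its 15 and 112 estimated counts gave a larger ratio of 5.61 (3.25 to 10.3). Rps27l was at 125.2 and 91.3 FPKM. Thus Igfbp3 and Rps27l, both called higher in NTD brain, had lower values in FA0 than in FA4 stem cells; the designs differ and the contrast between them was not tested.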

How the data were processed

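RNA-seq of 6 mouse embryonic brain libraries (3 NTD, 3 control) and 2 mESC libraries (FA0, FA4) was re-analysed. Groups and replicate numbers follow the sample titles. The 31 genes, the lists of other pathway genes and the markers were chosen with earlier results of these data known.

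The submitters' processing notes name build mm10 and the tools HTSeq 0.9.1, HISAT2 2.0.4, edgeR and cutadapt 1.9.3. Neither annotation nor strandedness is given in the sources used here. The authors deposited read counts per gene for brain, per the file headers, and 6 further normalized columns that were not used here. The deposited mESC table holds FPKM and estimated counts, with the authors' log2 ratio, p-value and FDR, per the file headers; 5 further columns were not used here. The authors' deposited log2 ratio is that of the FPKM columns.

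Brain counts were tested with edgeR 4.0.16 in R 4.3.3 (quasi-likelihood F-test, robust, TMM scaling, filterByExpr), with Benjamini-Hochberg adjustment over the 11626 genes kept. CPM are counts over TMM-scaled library sizes. Standard errors and 95% intervals follow from the F statistic. In mESC, log2 ratios used a pseudocount of 1 FPKM, which understates changes of low genes, and genes averaging 5 FPKM or more. Exact binomial intervals used estimated counts rounded to integers (scipy 1.17.1). Intervals and limits from counts cover counting error only.

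Full statistics are given for Trp53, Mdm2, Mdm4, Cdkn1a, any p53 gene called and the 8 with the smallest p; other pathway genes are named if called or among the 4 smallest p. Matching Pidd1 and Tigar by identifier, counting Cop1 once under its 2 names, the promoter search and the stretches printed were chosen after the data were seen. Coordinates and exon lengths come from GENCODE M21 (GRCm38, which mm10 names). Alternatives were DESeq2 1.42.0, limma-voom (limma 3.58.1), other scalings and filters, the replicate number as a block, and libraries left out. The labels give no sequencing batch or date.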

Additional observations from a re-analysis of the deposited data

How the results depend on the processing

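No p53 gene was called higher in NTD brain under any alternative. The count called lower was 0 except 1 (Ddit4l) without NTD library 3 and 1 with control library 1 and NTD library 3 left out together (range 0 to 1 leaving out 1 library). Over all brain genes the 336 calls became 1036 with DESeq2, 219 with limma-voom, and 50 (without NTD library 1) to 303 (without control library 1) with 1 library left out. The other pathway genes called were 2, but 5 with DESeq2 and 0 to 1 with 1 library left out. The labels do not say whether replicate numbers pair the libraries. Between libraries of the same number, deviations from the group mean correlated at -0.02, 0.09 and 0.03, which cannot show whether they share a litter or batch. With the replicate number as a block 205 genes were called and no call among the p53 genes changed. Of 360 pairs of a p53 gene and an alternative, 339 kept direction and did not pass the threshold, and 2 passed it. The other 19, in 8 genes, turned direction, and 18 genes never did. DESeq2 gave no adjusted p for Trp53inp1 and Xpc, which count among the 339 by direction alone. With limma-voom, Ccng1 was at -0.16, Eda2r at -1.87 and Perp at -0.85. With the block, Ccng1 was at -0.0226, Eda2r at -1.28 and Perp at -0.67. With control library 1 and NTD library 3 left out together, Ccng1 was at -0.39, Bax at 0.59 and Eda2r at -8.81. Leaving out 1 library, the log2 fold change ran from -1.12 to 1.25 for Ccng1, -0.0173 to 0.32 for Plk2, -0.72 to 0.33 for Bax, -0.85 to 1.75 for Aen, -9.12 to 1.23 for Trp53inp1, -8.25 to 1.69 for Eda2r, -0.16 to 0.85 for Perp and -8.30 to 1.50 for Xpc. None of these 8 genes was called under any of these settings, and the cause was not tested. Library totals alone moved the median of all genes from -0.02 to -0.11. In mESC, the 2 genes past 1.5-fold became 0 with a pseudocount of 5, 1 at a minimum of 10 FPKM and 3 at a minimum of 1 FPKM. With 3 libraries a group, the intervals of all p53 genes tested but Mdm2 reach a 2-fold difference; 1 library a group in mESC leaves the spread between cultures unmeasured.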
